A study of Mus musculus with 10 samples.

Results

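Potassium channel genes were taken from the gene table of P30 mouse lungs as every protein-coding gene whose symbol begins with Kcn and whose mean level over the 10 lungs was at least 0.1 FPKM (fragments scaled by gene length and sequencing depth). Of 94 such protein-coding genes, 51 met the limit, and 43 lay below it. The table held 54532 genes in all, of which 20448 met the same limit. The members were sorted by protein family into 19 voltage-gated pore genes, 8 inward rectifiers, 8 two-pore channels, 4 calcium-activated channels and 12 auxiliary or regulatory subunits.

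The lungs came from wild-type C57BL/6J mice. In 5 mice of the IPF (increased pulmonary flow) group, the abdominal aorta and the inferior vena cava were joined by a needle puncture at P7, which sends additional blood through the right heart and the lungs. In 5 sham mice the same operation was done without the puncture, so all 10 animals had surgery and anaesthesia. Each sample was the whole lung of 1 animal, with airways, vessels, blood cells and any attached tissue, collected at P30. The recovered depth was 16250190 to 19026843 reads in the IPF group and 15483046 to 17818542 in the sham group.

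The groups also differed in ways that every value below shares. Xist, transcribed from the inactive X chromosome, was 26.8 to 43.2 FPKM in IPF and 0.0301 to 0.0767 in sham, while the Y-linked gene Ddx3y was 0 in all 5 IPF lungs and 14.3 to 21.4 FPKM in sham. Sex and operation thus cannot be told apart in these samples. The clock output gene Dbp was 1.74 to 3.49 FPKM in IPF and 23.2 to 29.3 in sham, and the time of day of collection was not given in the sources used here. Over 18 lists of cell type markers with 101 genes, 8 genes were called higher and 2 lower in IPF, where 3.71% of all genes tested were called higher and 2.14% lower (limma, adjusted p under 0.05). The summed level of 3 lists did not overlap between the groups: endothelium at 1177 to 1328 FPKM against 1013 to 1078, B cells at 18.0 to 29.0 against 8.24 to 14.2, and mast cells at 2.78 to 8.49 against 1.02 to 1.88. Sham 1 had the lowest alveolar type 2 sum, 12346 FPKM against 16405 to 19788 in the other lungs, and IPF 3 had high airway markers. In whole-lung RNA, fewer cells of a type and less RNA per cell cannot be told apart.

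Potassium channels let potassium leave the cell along its gradient and hold the membrane potential negative. In pulmonary artery smooth muscle this keeps voltage-gated calcium channels closed and tone low, and loss-of-function variants of KCNK3 are a known cause of heritable pulmonary arterial hypertension. In epithelia the same channels supply the driving force for chloride and fluid transport, and in lymphocytes they sustain calcium entry after activation.

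Promoter windows from RefSeq (GRCm38.p6, 250 bases before to 50 after a transcription start) were found for 39 of the 51 members. Those of Kcns3, Kcnj2 and Kcnk1 are shown because these were the members whose calls were kept under every alternative setting. They read 5′ to 3′ along the gene, with capitals marking the only matches to 7 motifs searched on both strands. The Kcns3 window is chr12:11150793-11151092 on the minus strand, Kcnj2 is chr11:111065914-111066213 on the plus strand and Kcnk1 is chr8:125994852-125995151 on the plus strand.
Kcns3: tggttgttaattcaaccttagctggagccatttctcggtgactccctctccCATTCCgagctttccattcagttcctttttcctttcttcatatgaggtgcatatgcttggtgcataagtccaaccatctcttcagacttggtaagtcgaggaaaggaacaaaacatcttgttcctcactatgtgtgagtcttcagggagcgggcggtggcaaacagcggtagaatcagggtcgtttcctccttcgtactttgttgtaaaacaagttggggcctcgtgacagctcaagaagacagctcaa
Kcnj2: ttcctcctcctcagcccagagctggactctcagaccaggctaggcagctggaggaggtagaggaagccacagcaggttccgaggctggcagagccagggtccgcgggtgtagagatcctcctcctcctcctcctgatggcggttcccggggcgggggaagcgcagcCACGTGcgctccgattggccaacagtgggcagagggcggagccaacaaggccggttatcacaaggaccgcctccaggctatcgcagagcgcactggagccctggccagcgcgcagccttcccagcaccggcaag
Kcnk1: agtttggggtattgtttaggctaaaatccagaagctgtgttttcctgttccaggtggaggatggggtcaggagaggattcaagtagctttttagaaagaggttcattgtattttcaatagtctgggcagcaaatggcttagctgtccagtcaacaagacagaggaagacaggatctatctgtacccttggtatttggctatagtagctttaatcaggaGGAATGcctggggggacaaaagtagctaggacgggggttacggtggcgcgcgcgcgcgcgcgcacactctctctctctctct
The capitals in Kcnj2 are CACGTG, the E-box, which starts at -84 from the transcription start. Those in Kcnk1 are GGAATG, the core of the TEAD motif, at -32. Kcns3 holds the reverse complement of that core, CATTCC, at -199.

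Matches to these letters were not rare. Each member has 1 window, at the start nearest the 5′ end in the gene table, while the set of all windows holds several starts for some genes. The 2 kinds of share are thus not from like sets. The start used lies 214 bases from that 5′ end for Kcns3 and 68 for Kcnk1. CACGTG was found in 5 of the 39 member windows (12.8%) and in 7.15% of all 32851 windows, and GGAATG in 8 (20.5%) and in 14.7%. TATAAA was found in 2 member windows (5.13%) against 13.6% of all, and the core of the interferon-stimulated response element in 1 (2.56%) against 3.44%. No member window held TTATGTAA, TGACGTCA or the CArG box, which were in 0.938%, 1.79% and 1.63% of all windows. The Kcnj2 window was 66.7% G and C, against 49.0% for Kcnk1 and 47.0% for Kcns3, with a median of 52.7% over all windows. The windows of Kcne2 and Kcnip3, the other members called, held none of the 7 motifs.

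Potassium channel RNA in the lung was uneven. Kcne2 had the highest mean, 18.4 FPKM over the 10 lungs, followed by Kcnk3 at 18.0 and Kcnj15 at 14.9. These 3 genes, an auxiliary subunit, a two-pore channel and an inward rectifier, made up 33.7% of the summed mean level of all 51 members. Of the members, 29 had a mean of at least 1 FPKM, 8 of at least 5 and 3 of at least 10. The class means ran from 0.105 to 7.60 FPKM among voltage-gated genes, from 0.103 to 14.9 among inward rectifiers, from 0.255 to 18.0 among two-pore channels, from 0.301 to 1.07 among calcium-activated channels and from 0.104 to 18.4 among auxiliary genes.

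**Figure D1:**
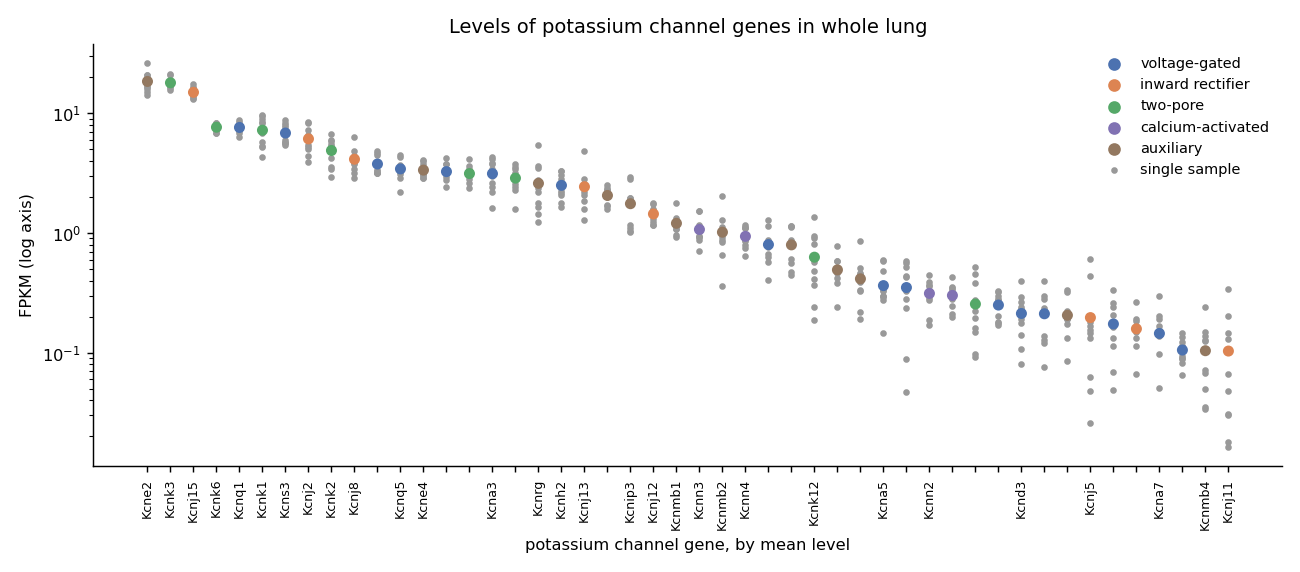
Level of the potassium channel genes in FPKM on a log axis, ordered by mean and coloured by class, with a grey dot for each of the 10 lungs and a coloured dot for their mean. Values of 0 are not drawn, which concerns Kcna7 in sham 3, and genes not described in the text carry no name. Kcne2, Kcnk3 and Kcnj15 lie above all other genes, and calcium-activated channels lie near or below 1 FPKM.

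The members nearest the limit were Kcnj11 at 0.103 and Kcnmb4 at 0.104 FPKM just inside it, and Kcnc4 at 0.0989 and Kcnh6 at 0.0946 just outside. Kcne1, Kcnk15, Kcnv1, Kcnh8 and Kcnh5 were at 0 in all 10 samples. Kcnma1, the pore of the large-conductance calcium-activated channel of smooth muscle, was also below the limit, at 0.0193 to 0.118 FPKM with its counts divided by a gene length of 16976 bases. Kcnab1, a cytosolic β subunit of Kv1 channels, was below it at a mean of 0.0736 FPKM. Genes below the limit were not tested.

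Some channel genes differed between the groups, and the differences were moderate in size. Each member was tested with limma on log2(FPKM + 0.1), a scale on which changes of weakly expressed genes appear smaller than they are, and p-values were adjusted over all 20448 genes. The adjusted p fell under 0.05 for 5 of the 51 members (9.8%), against 5.85% of all genes. Kcns3, Kcnj2 and Kcne2 were higher in IPF, where 3.71% of all genes were called higher. Kcnk1 and Kcnip3 were lower, where 2.14% of all genes were called lower. No member also had an absolute log2 fold change above 1, a limit that 1.14% of all genes passed together with the adjusted p. Without the adjustment, 11 members (21.6%) had a limma p under 0.05, against 19.5% of all genes.

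The members as a family were not shifted one way. The log2 fold change was positive for 26 and negative for 25, with a median of 0.01, and the median over all genes was 0.0016. In 6 members the 2 groups did not overlap (11.8%, against 7.29% of all genes), namely Kcns3, Kcnj2, Kcne2, Kcnk1, Kcnk6 and Kcnj13. With 5 lungs in each group, the smallest two-sided p of an exact permutation test is 0.00794, and the p-values measure the spread between these samples.

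**Figure D2:**
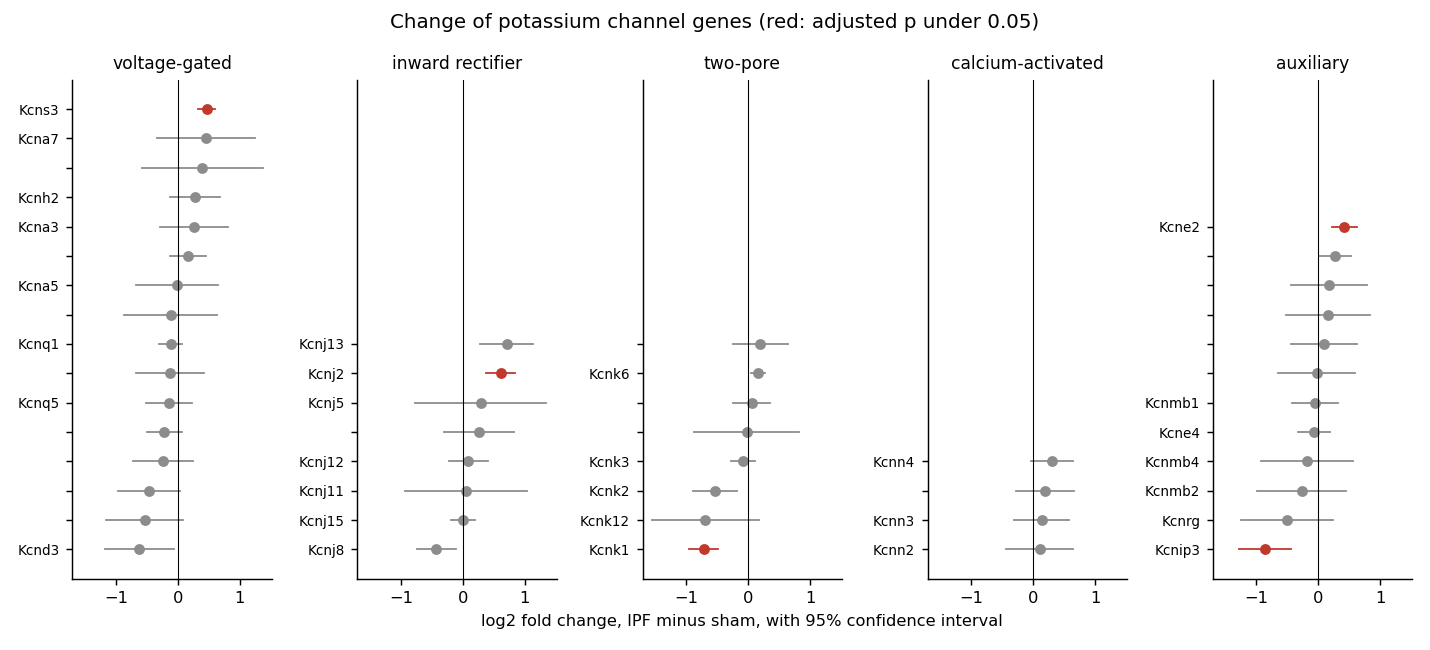
Difference between IPF and sham for the potassium channel genes, as log2 fold change with its 95% confidence interval, sorted by class, with names only for genes described in the text. Red marks the 5 genes with an adjusted p under 0.05: Kcns3, Kcnj2 and Kcne2 on the higher side and Kcnk1 and Kcnip3 on the lower side, while most other intervals include 0.

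Among the voltage-gated pore genes 1 of 19 was called, and it was higher in IPF. Their log2 fold changes ran from -0.62 to 0.47 with a median of -0.11, and 7 were positive and 12 negative. Kcns3 encodes Kv9.3, a subunit that carries no current alone and modulates other voltage-gated subunits in heteromeric channels of pulmonary artery smooth muscle. The gene (ENSMUSG00000043673) lies on chromosome 12 from 11090202 to 11151056 in GRCm38. Its levels were 7.95, 8.25, 7.20, 7.65 and 8.72 FPKM in IPF 1 to 5 and 5.68, 5.94, 5.47, 5.67 and 5.76 FPKM in sham 1 to 5. Every IPF lung was above every sham lung, and the sham lungs lay close together. The means were 7.95 ± 0.575 and 5.70 ± 0.169 FPKM (SD, n = 5 each), a fold of 1.39 and a log2 fold change of 0.47 (95% CI 0.33 to 0.61, limma adjusted p = 0.00204).

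Kcna5 encodes Kv1.5, an oxygen-sensitive channel of pulmonary artery smooth muscle, and was low in these whole lungs. Its levels were 0.328, 0.147, 0.480, 0.594 and 0.296 FPKM in IPF and 0.297, 0.292, 0.588, 0.336 and 0.275 FPKM in sham. The groups overlapped over nearly their whole range. The means were 0.369 ± 0.173 and 0.357 ± 0.131 FPKM (SD, n = 5 each), and the log2 fold change was -0.01 (95% CI -0.67 to 0.65, limma adjusted p = 0.993). Between 7 and 31 reads in IPF and 12 and 27 in sham stood behind each value. The interval is wide, and the highest value of each group was in IPF 4 and sham 3, the lungs with the highest cardiac muscle markers. The sign turned to positive with a pseudocount of 1 or quantile normalization.

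Further voltage-gated genes with a role in vessels did not pass the test. Kcnq1 (Kv7.1), the most abundant of the class, was 7.32 ± 0.949 FPKM in IPF and 7.89 ± 0.416 in sham (log2 fold change -0.11, limma adjusted p = 0.512). An antisense gene, Kcnq1ot1, overlaps it, and whether the counting used strand was not given in the sources used here. Kcnq5, another Kv7 gene of vascular smooth muscle, had a log2 fold change of -0.14 (adjusted p = 0.699 by limma), which turned to 0.071 without IPF 3 and sham 1. Kcnh2, the hERG channel, had a log2 fold change of 0.28 (adjusted p = 0.449 by limma).

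The lymphocyte channel gene Kcna3 (Kv1.3), singled out after its values were seen, did not pass the test. It was 2.42 to 4.13 FPKM in IPF and 1.60 to 4.27 in sham (log2 fold change 0.26, 95% CI -0.28 to 0.80, limma adjusted p = 0.613). All 4 B cell markers were called higher in IPF, and 1 T cell marker was called, with T cell sums of 10.7 to 14.1 and 7.23 to 11.0 FPKM; their part in the Kcna3 level was not tested. Kcnd3, a transient outward channel gene, was also singled out after its values were seen. It had the lowest log2 fold change of the class, -0.62, with a limma p of 0.0333 that rose to 0.204 after adjustment.

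**Figure D3:**
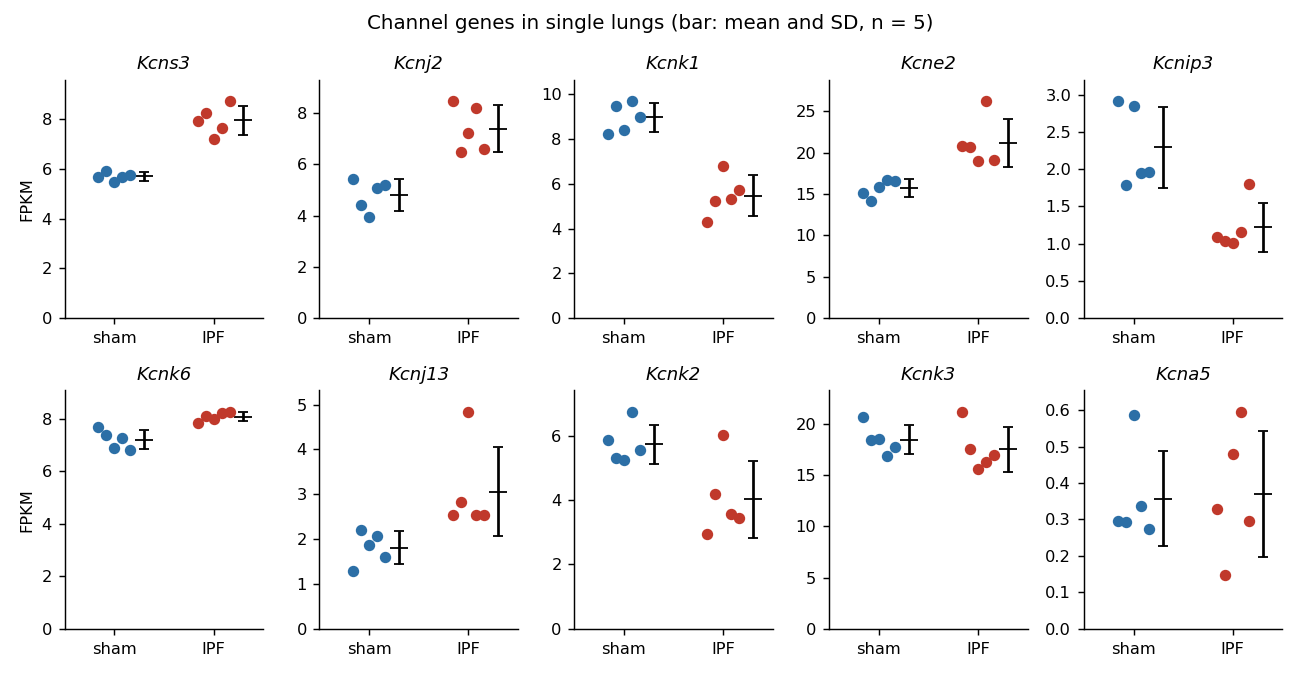
FPKM of 10 potassium channel genes in each lung, IPF beside sham, with a bar and whiskers for the mean ± SD of 5 lungs. The groups are apart in Kcns3, Kcnj2, Kcnk1, Kcne2, Kcnk6 and Kcnj13, touch or overlap in Kcnip3 and Kcnk2, and lie over each other in Kcnk3 and Kcna5.

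Of the 8 inward rectifiers 7 had a positive log2 fold change, and 1 was called. The range was -0.43 to 0.70 and the median 0.17. Kcnj2 encodes Kir2.1, a strong inward rectifier that endothelial cells use to set their resting potential and to respond to flow. The gene (ENSMUSG00000041695) lies on chromosome 11 from 111066164 to 111076821 in GRCm38. It was 8.46, 6.49, 7.23, 8.21 and 6.60 FPKM in IPF and 5.43, 4.43, 3.95, 5.06 and 5.22 FPKM in sham. The lowest IPF lung was above the highest sham lung. The means were 7.40 ± 0.905 and 4.82 ± 0.613 FPKM (SD, n = 5 each), a fold of 1.53 and a log2 fold change of 0.61 (95% CI 0.37 to 0.85, limma adjusted p = 0.00787). The sum of endothelial markers was also higher in each IPF lung than in any sham lung, and 1 of its 7 genes, Cldn5, was called. The mean of Cldn5 differed by 142 FPKM, that of Cdh5, next in size, by 25.6 FPKM and that of Pecam1 by -6.15 FPKM, IPF minus sham. The part of endothelial RNA in the Kcnj2 difference was not tested. Kcnj12 (Kir2.2), of the same subfamily, was 1.48 ± 0.186 and 1.40 ± 0.267 FPKM (log2 fold change 0.09, limma adjusted p = 0.798).

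Kcnj13 (Kir7.1, a low-conductance channel of transporting epithelia, ENSMUSG00000079436) was separated between the groups but did not pass the adjusted test. Its levels were 2.54, 2.83, 4.83, 2.55 and 2.54 FPKM in IPF and 1.29, 2.20, 1.86, 2.08 and 1.60 in sham. IPF 3 was far above the rest of its group. The log2 fold change was 0.70 (95% CI 0.27 to 1.14, limma adjusted p = 0.0630, exact permutation p = 0.00794). With only genes of at least 1 FPKM tested, its adjusted p was 0.0465. Kcnj13 lies within Gigyf2 on the opposite strand, which was 5.18 FPKM in IPF and 5.35 in sham, so its reads are uncertain if strand was not used.

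The ATP-sensitive channel of vessels is built from Kir6.1, the product of Kcnj8, and SUR2, the product of Abcc9. Kcnj8 was 2.88, 3.44, 4.13, 3.14 and 3.86 FPKM in IPF and 3.74, 4.42, 6.38, 4.43 and 4.86 in sham. The groups overlapped, with 3 IPF lungs below all sham lungs. The log2 fold change was -0.43 (95% CI -0.74 to -0.12, limma adjusted p = 0.113, exact permutation p = 0.0238). Abcc9 was 2.53 ± 0.763 and 2.99 ± 0.523 FPKM (log2 fold change -0.27, limma adjusted p = 0.480). Kcnj11 (Kir6.2), the pore of the ATP-sensitive channel of β cells and heart, was near the filter limit at 0.114 ± 0.136 and 0.0929 ± 0.0796 FPKM, with a log2 fold change of 0.05 whose sign depended on single lungs (limma adjusted p = 0.970).

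Kcnj15 (Kir4.2, found in epithelia), the most abundant inward rectifier, was nearly equal in the groups. It was 15.0 ± 1.90 FPKM in IPF and 14.9 ± 1.05 in sham, with a log2 fold change of 0.01 and a 95% CI of -0.18 to 0.20 (limma adjusted p = 0.978).

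Of the 8 two-pore channels, which carry background potassium current, 1 was called and it was lower in IPF. The log2 fold changes ran from -0.71 to 0.20 with a median of -0.05. Kcnk1 encodes TWIK-1, a weakly active background channel. The gene (ENSMUSG00000033998) lies on chromosome 8 from 125995170 to 126030685 in GRCm38. It was 4.28, 5.21, 6.79, 5.33 and 5.74 FPKM in IPF and 8.22, 9.48, 8.42, 9.67 and 8.98 FPKM in sham. The highest IPF lung, IPF 3, was below the lowest sham lung. The means were 5.47 ± 0.910 and 8.95 ± 0.635 FPKM (SD, n = 5 each), a fold of 0.61 and a log2 fold change of -0.71 (95% CI -0.95 to -0.48, limma adjusted p = 0.00361).

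Kcnk6 encodes TWIK-2, a relative of TWIK-1, and its values went the other way by a small amount. It was 7.85, 8.09, 7.98, 8.22 and 8.25 FPKM in IPF and 7.67, 7.36, 6.90, 7.26 and 6.81 FPKM in sham. The groups did not overlap, yet the fold was only 1.12. Its log2 fold change of 0.17 (95% CI 0.05 to 0.28) had a limma adjusted p of 0.105 and an exact permutation p of 0.00794.

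Kcnk2 encodes TREK-1, a channel opened by membrane stretch. It was 2.94, 4.19, 6.01, 3.57 and 3.44 FPKM in IPF and 5.85, 5.29, 5.25, 6.73 and 5.54 FPKM in sham. In 4 IPF lungs it was below all sham lungs, and IPF 3 lay among the sham values. The log2 fold change was -0.54 (95% CI -0.89 to -0.18, limma adjusted p = 0.0861, exact permutation p = 0.0397). Without IPF 3 it was -0.69 with a limma adjusted p of 0.00887, and limma voom on the recovered reads gave an adjusted p of 0.0428. Kcnk2 passed in only 1 of 10 fits that left out a lung, where the limma adjusted p reached 0.184. It passed in only 1 of 8 other settings, where the limma adjusted p reached 0.137. Without IPF 3 and sham 1 together it was also called.

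Kcnk3 encodes TASK-1, the acid-sensitive background channel of pulmonary artery smooth muscle, and was among the best measured members with 1073 to 1430 reads per lung. The gene (ENSMUSG00000049265) lies on chromosome 5 from 30588170 to 30625271 in GRCm38. Its levels were 21.1, 17.5, 15.6, 16.2 and 16.9 FPKM in IPF and 20.7, 18.4, 18.5, 16.9 and 17.7 FPKM in sham. The groups overlapped, and the highest lung of each was replicate 1. The means were 17.5 ± 2.16 and 18.4 ± 1.41 FPKM (SD, n = 5 each), a fold of 0.947 and a log2 fold change of -0.08 (95% CI -0.27 to 0.11, limma adjusted p = 0.661, exact permutation p = 0.413). Without IPF 3 and sham 1 it was 0.0016.

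The summed level of the two-pore class was 40.5 to 43.7 FPKM in IPF and 45.4 to 48.3 in sham, the only class sum in which the groups did not overlap. The difference in means was -3.48 FPKM for Kcnk1, -1.70 for Kcnk2 and -0.93 for Kcnk3, against 0.88 for Kcnk6. The sum over members was not tested.

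**Figure D4:**
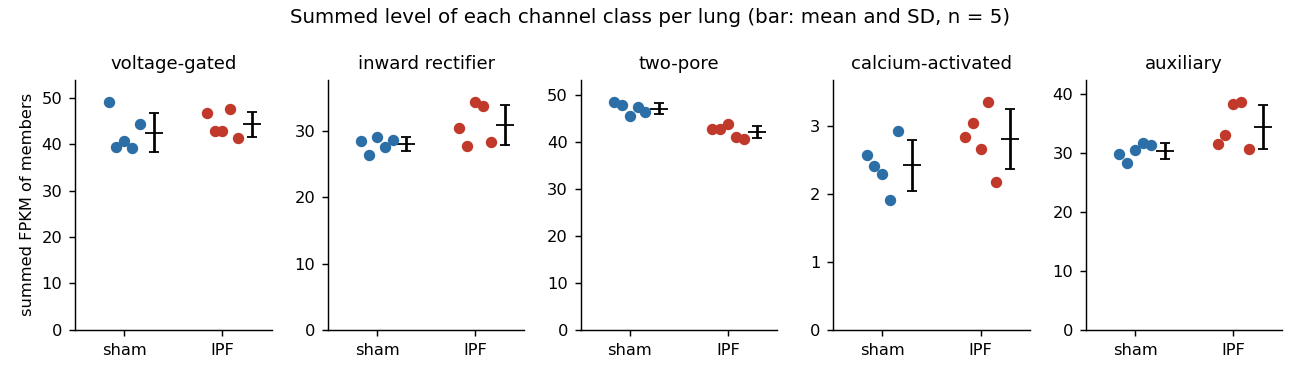
Summed FPKM of the members of each class in each lung, IPF beside sham. The two-pore sums are 40.5 to 43.7 FPKM in IPF and 45.4 to 48.3 in sham, while the sums of the other classes overlap.

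The other class sums overlapped. Voltage-gated genes summed to 41.3 to 47.5 FPKM in IPF and 39.1 to 49.0 in sham, and inward rectifiers to 27.8 to 34.3 and 26.4 to 29.2. Auxiliary genes summed to 30.6 to 38.6 and 28.4 to 31.7 FPKM. All 51 members together made 143.0 to 164.4 FPKM in IPF and 144.3 to 158.2 in sham.

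No calcium-activated channel was called, and all 4 had a positive log2 fold change, from 0.10 to 0.30. Kcnn4, the intermediate-conductance channel of endothelium and immune cells, was 1.04 ± 0.129 FPKM in IPF and 0.831 ± 0.168 in sham (log2 fold change 0.30, 95% CI -0.03 to 0.64, limma adjusted p = 0.310). Kcnn3, the small-conductance channel of endothelium, was 1.12 ± 0.252 and 1.02 ± 0.303 FPKM (log2 fold change 0.14, limma adjusted p = 0.762). Kcnn2, of the same small-conductance group, was 0.330 ± 0.105 and 0.295 ± 0.068 FPKM (log2 fold change 0.10, limma adjusted p = 0.865). Kcnmb1, the smooth muscle β subunit of the large-conductance channel, was 1.17 ± 0.105 and 1.24 ± 0.344 FPKM (log2 fold change -0.05, limma adjusted p = 0.914).

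Among the 12 auxiliary genes 1 was called higher and 1 lower, with log2 fold changes from -0.86 to 0.42 and a median of -0.04. Kcne2 encodes a small membrane subunit that joins Kv7.1 and hERG and alters their gating. The gene (ENSMUSG00000039672) lies on chromosome 16 from 92292389 to 92298129 in GRCm38. It was 20.8, 20.7, 19.0, 26.2 and 19.1 FPKM in IPF and 15.1, 14.2, 15.8, 16.7 and 16.6 FPKM in sham. Every IPF lung was above every sham lung, and IPF 4 stood above the rest of its group. The means were 21.2 ± 2.93 and 15.7 ± 1.07 FPKM (SD, n = 5 each), a fold of 1.34 and a log2 fold change of 0.42 (95% CI 0.23 to 0.62, limma adjusted p = 0.0183). Without IPF 3 and sham 1 together its limma adjusted p was 0.0523. Its partner genes Kcnq1 and Kcnh2, described above, were not called.

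Kcnip3 encodes a calcium-binding protein, also known as DREAM or calsenilin, that joins Kv4 channels and can repress transcription. The gene (ENSMUSG00000079056) lies on chromosome 2 from 127456498 to 127522094 in GRCm38. It was 1.09, 1.03, 1.01, 1.16 and 1.80 FPKM in IPF and 2.91, 1.79, 2.85, 1.95 and 1.96 FPKM in sham. In 4 IPF lungs it was below all sham lungs, and IPF 5 lay just above the lowest sham lung. The means were 1.22 ± 0.330 and 2.29 ± 0.540 FPKM (SD, n = 5 each), a fold of 0.551 and a log2 fold change of -0.86 (95% CI -1.27 to -0.45, limma adjusted p = 0.0217, exact permutation p = 0.0159). The call was lost when IPF 1, IPF 2, IPF 4, sham 1 or sham 3 was left out, with limma adjusted p of 0.0586, 0.0613, 0.0578, 0.0592 and 0.0601, and it was also lost without IPF 3 and sham 1 together (0.102).

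Kcne4, another small membrane subunit of Kv7 and Kv1 channels, was 3.26 ± 0.474 and 3.44 ± 0.447 FPKM (log2 fold change -0.07, limma adjusted p = 0.782). Kcnrg, a cytosolic protein that hinders the assembly of Kv channels, was 1.22, 1.64, 5.42, 1.44 and 1.80 FPKM in IPF and 2.79, 3.61, 2.35, 3.49 and 2.19 in sham. All IPF lungs but IPF 3 were below all sham lungs. With all lungs its log2 fold change was -0.51 (adjusted p = 0.453 by limma), and without IPF 3 it was -0.86 with a limma adjusted p of 0.0204. No other setting gave a call of Kcnrg. Kcnrg overlaps Dleu2 on the opposite strand.

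Some channel genes were highest in the lungs of a group with the most heart muscle or airway marker RNA. Those not described above were singled out after their values were seen. The sum of cardiac muscle markers was 162 FPKM in IPF 4 and 146 in sham 3, against 17.0 to 54.9 in the other lungs. Kcnj5, which encodes a subunit of the acetylcholine-gated channel of the atrium, was highest in the same lungs, at 0.609 and 0.439 FPKM, with 0.026 to 0.179 in the others. Its partner Kcnj3, below the limit, was 0.410 FPKM in IPF 4 and 0.239 in sham 3, at 0.012 in sham 4 and at 0 in the other 7 lungs. Kcnj11 was 0.343 FPKM in IPF 4 and 0.203 in sham 3, and Kcna5 was 0.594 and 0.588 FPKM, again the highest values of their groups. The part of heart muscle in the Kcna5 level was not tested.

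The sum of secretory airway markers was 27455 FPKM in IPF 3, against 3712 to 13244 in the other IPF lungs and 11526 to 22991 in sham. IPF 3 also had the highest value of its group in Kcnrg, in Kcnj13, in Kcnk2, in Kcnk12 at 1.37 FPKM against 0.186 to 0.409, and in Kcnmb2 at 2.03 against 0.361 to 0.997. Kcnk12 encodes THIK-2, a two-pore channel, and Kcnmb2 a β subunit of the large-conductance channel. In sham, Kcnk12 was 0.483 to 0.940 FPKM, and its log2 fold change was -0.69 (adjusted p = 0.377 by limma). Without IPF 3 it was -1.07 with a limma adjusted p of 0.0390, and no other setting gave a call of Kcnk12. Of the 51 members, 20 had the highest value of the IPF group in IPF 3 and 13 in IPF 4, while 9 had the lowest in IPF 3. In the sham group 17 were highest in sham 1. The matching shares over all genes were not counted, so nothing is read from these counts. IPF 5, with the second highest secretory sum of its group, also had the second highest IPF value of Kcnrg and Kcnk12, at 1.80 and 0.409 FPKM, and the lowest of Kcnj13 and Kcnmb2, at 2.54 and 0.361 FPKM. Airway content was not the only trait of IPF 3. It also had the highest IPF sum of other lists, among them adipocyte and smooth muscle, the latter at 240 FPKM against 130 to 160. Its pericyte and erythroid sums were the lowest of the group. The part of airway content or of other cell types in these channel values was not tested.

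**Figure D5:**
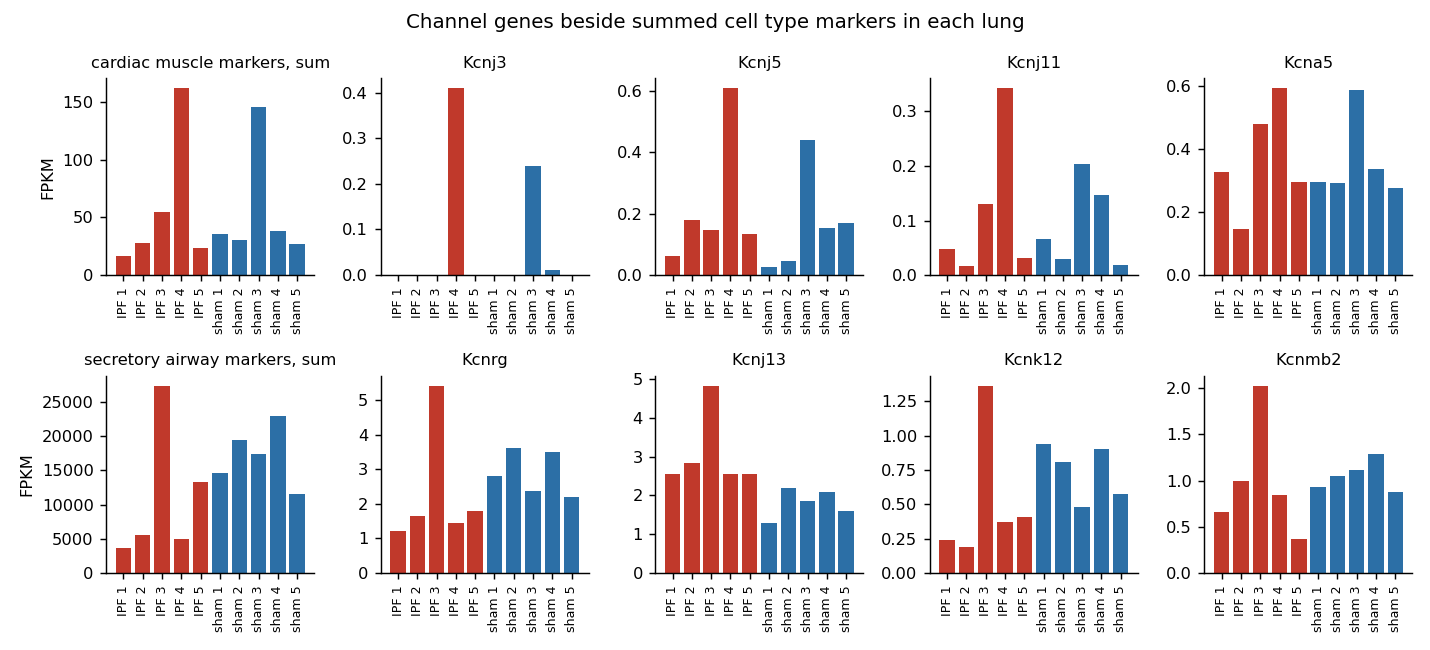
Values in each lung, in FPKM, as bars from 0. The upper row shows the cardiac muscle marker sum with Kcnj3, Kcnj5, Kcnj11 and Kcna5, in which IPF 4 and sham 3 are high, and the lower row the secretory airway marker sum with Kcnrg, Kcnj13, Kcnk12 and Kcnmb2, in which IPF 3 is the highest IPF lung.

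Genes that work beside the channels were read from 3 further lists. Of 8 tested channel partners not named Kcn, such as Abcc9, none was called in either direction, and their median log2 fold change was 0.03. None of 6 tested channels of other families that pass potassium was called, with a median of -0.05. Of 18 tested potassium pumps and cotransporters 2 were called higher and 1 lower, with a median of 0.06, while 5.85% of all genes were called.

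Atp1b2, a β subunit of the sodium-potassium pump, was 6.07 to 7.34 FPKM in IPF and 3.82 to 5.09 in sham, without overlap (log2 fold change 0.51, limma adjusted p = 0.00955). Slc12a4, which encodes the potassium-chloride cotransporter KCC1, was 19.9 to 22.0 FPKM in IPF and 24.5 to 26.1 in sham, and every IPF lung was below every sham lung (log2 fold change -0.28, limma adjusted p = 0.00706).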

How the data were processed

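Whole-lung mRNA of 5 IPF and 5 sham mice was analysed. The authors used Fastp for trimming, HISAT2 for alignment and StringTie for quantification, per the methods, while the sample records name Bowtie 0.12.2. They deposited a table of FPKM values by gene, with gene lengths and positions. Methods and sample records name different library kits, and the methods name GRCm39, while the records name GRCm38 and positions in the table are GRCm38 (195323493 is the end of the last chromosome 1 gene). FPKM times length gave whole reads for 100% of values within 0.02 reads, from which depth was recovered. Counts as such were not used for the main test, and the authors' comparisons were not used.

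Testing covered every gene averaging 0.1 FPKM or more and used limma 3.58.1 (R 4.3.3, trended empirical Bayes) on log2(FPKM + 0.1), IPF against sham, with Benjamini-Hochberg adjustment, and called at an adjusted p under 0.05. Confidence intervals are limma's. Exact permutation tests covered all 252 assignments of the samples and were two-sided. On simulated data with 3-fold changes in 200 genes, the test recovered 195 and made 10 false calls, and 0 calls without changes. Smaller changes, such as those of the channel genes, were not simulated. Pairs of libraries of a group differed by more than sampling noise (chi-square per degree of freedom of at least 4.78), so none was a copy. Promoter windows were matched by symbol. Python 3.11.15, numpy 2.4.6 and pandas 2.3.3 served for tables.

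The members, classes, marker lists and pathway lists were chosen with earlier results of these data known. Channel genes named by rule are those called, Kcnk3 and Kcna5, the 3 highest of each class, a list of 19 channels studied in pulmonary vessels, those whose groups did not overlap, and those nearest the limit. Kcna3, Kcnd3 and some genes set beside heart muscle and airway markers were singled out after their values were seen. The own values of some genes are not reported here or drawn singly, but these genes remain in all counts, sums and tests. The alternatives were other pseudocounts, filters and normalizations, limma voom on recovered reads, the replicate number as a block, and leaving out each sample. Leaving out IPF 3 and sham 1 together was chosen after seeing the data.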

Additional observations from a re-analysis of the deposited data

Results flagged for a closer look

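In groups of 5 lungs, a sample was singled out where its gap to the nearest other sample was, as a share of the range of the group, above Dixon's 95% critical value. This was so in 5 of 48 groups of potassium channel values examined, and chance alone singles out about 1 in 20 groups. Kcnk12 and Kcnj5, singled out in the text after their values were seen, were not among the groups examined. Kcne2 was 26.2 FPKM in IPF 4, above 19.0 to 20.8 in the other IPF lungs. Kcnrg was 5.42 FPKM in IPF 3 against 1.22 to 1.80, and Kcnj13 was 4.83 FPKM in the same lung against 2.54 to 2.83. Kcnip3 was 1.80 FPKM in IPF 5 against 1.01 to 1.16. Kcna5 was 0.588 FPKM in sham 3 against 0.275 to 0.336 in the other sham lungs.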

How the results depend on the processing

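The calls of Kcns3, Kcnj2 and Kcnk1 kept their direction and passed the test under every alternative tried. The count of all genes called was 1196, and 748 to 1619 when single lungs were left out. With the added limit on fold it was 233, but 74 with a pseudocount of 1 and 154 with a mean FPKM of at least 1, and 164 to 303 without single lungs. The 3 members called higher became 3 to 4 and the 2 called lower 1 to 5 without single lungs, the latter being 1 without IPF 1, IPF 2, IPF 4, sham 1 or sham 3 and 5 without IPF 3. The median log2 fold change of voltage-gated genes was 0.048 with a mean FPKM of at least 1, and -0.12 to 0.029 without single lungs, and in the same way that of two-pore channels was -0.16 to 0.0017, of inward rectifiers 0.051 to 0.26, of calcium-activated channels 0.080 to 0.25 and of auxiliary genes -0.12 to 0.038. Without IPF 3 and sham 1 together, the two-pore median was -0.18, and the log2 fold change was 0.0016 for Kcnk3, -0.052 for Kcnj11 and 0.071 for Kcnq5. Kcna5 was 0.0082 with a pseudocount of 1 and 0.039 with quantile normalization, and Kcnj15 was -0.019 with the latter. Leaving out single lungs gave log2 fold changes of -0.15 to -0.037 for Kcnk3, -0.25 to -0.0091 for Kcnq5, -0.17 to 0.20 for Kcna5, -0.052 to 0.054 for Kcnj15, -0.26 to 0.24 for Kcnj11, -0.13 to 0.082 for Kcnmb1 and -0.0046 to 0.26 for Kcnn2. The cause of these changes was not tested. IPF and sham share replicate numbers, but the deviations of samples with the same number correlated at only -0.02 to 0.095, so the numbers were not taken as pairs. Against this choice, 3 of 5 IPF samples correlated best with their own number. With the replicate block, 5 members were called: Kcnip3 was lost (adjusted p = 0.0602, limma) and Kcnj8 gained (adjusted p = 0.0270, limma). Depth limits the low members, and 22 of the 43 genes below the limit had at most 3 reads in every lung.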
